A study of Homo sapiens with 30 samples.

Results

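OAS1, OAS2, OAS3 and OASL, the human 2′-5′-oligoadenylate synthetase family, were followed across T47D cells treated with siRNA against each subunit of the negative elongation factor NELF, a complex that pauses RNA polymerase II soon after transcription starts. The genes were taken by their platform gene symbols, which gave 4 transcript clusters of 22011 in the gene-level table (3432438 for OAS1, 3432514 for OAS2, 3432467 for OAS3 and 3474831 for OASL). The exon-level table held 86 of their probe sets among 287329, with 15 for OAS1, 26 for OAS2, 34 for OAS3 and 11 for OASL. The family was chosen because of its difference between knockdown and control, so every value against control is a description without a test. Tests are given only for differences between knockdowns, for other genes of the pathway and for neighbouring genes. The pathway list was drawn up with earlier results of these data known, which limits its tests.

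T47D is a luminal, hormone receptor-positive human breast cancer line. Cells were transfected with siRNA duplexes at 10 nM against NELF-A (siNELF-A), NELF-B (siNELF-B), NELF-C (siNELF-C) or NELF-E (siNELF-E), or with a control siRNA against luciferase, a firefly gene that human cells do not carry. Medium was replaced after 48 hours and the cells were harvested after a further 48 hours, with the same cell line, reagent and schedule in all 5 groups. Each group had 3 exon arrays, which the series text calls technical repeats, so p-values measure the spread between repeats and not between cultures. One cell line and 1 siRNA label for each subunit limit how far the groups stand for loss of NELF in general.

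OAS enzymes bind double-stranded RNA and join ATP into short 2′-5′-linked oligoadenylates. These act as second messengers of the antiviral response. The genes are known as interferon-stimulated genes, induced when the factor ISGF3, which contains STAT2 and IRF9, binds the interferon-stimulated response element in their promoters. OAS1, OAS2 and OAS3 lie side by side and differ in how many copies of the OAS unit they carry. OASL has no synthetase activity and carries ubiquitin-like repeats through which it acts on the RNA sensor RIG-I.

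Promoter sequence was matched for 2 of the 4 genes, OAS1 and OAS3, and is shown for the letters of known interferon response elements that it holds. The sequences are the 250 bases before the annotated start in RefSeq (GRCh38.p14), on the plus strand, at chr12:112906712-112906961 for OAS1 and chr12:112938224-112938473 for OAS3. Capitals mark AAACGAAAC, 9 bases that both promoters hold, picked after the sequences were seen.
OAS1 promoter: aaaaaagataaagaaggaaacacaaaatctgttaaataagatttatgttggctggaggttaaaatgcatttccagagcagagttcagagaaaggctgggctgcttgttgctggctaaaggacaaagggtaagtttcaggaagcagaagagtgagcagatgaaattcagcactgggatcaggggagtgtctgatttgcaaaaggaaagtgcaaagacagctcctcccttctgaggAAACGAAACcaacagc
OAS3 promoter: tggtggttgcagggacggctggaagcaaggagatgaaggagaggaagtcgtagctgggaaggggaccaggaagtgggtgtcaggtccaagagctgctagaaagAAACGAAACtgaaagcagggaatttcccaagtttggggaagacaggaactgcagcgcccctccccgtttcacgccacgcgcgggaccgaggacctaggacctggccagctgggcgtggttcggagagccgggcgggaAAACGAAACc
The 9 bases stood at positions -16 to -8 before the OAS1 start and at -147 to -139 and -10 to -2 before the OAS3 start. They occurred on either strand in 34 of 35116 RefSeq promoters of the same length, or 0.0968%. The core of the interferon-stimulated response element, searched on both strands as GAAA, any 2 bases and GAAA, matched the OAS3 window 2 times, at -143 to -134 and -12 to -3, each overlapping a copy of the 9 bases. That core was found in 3.02% of all promoters, and 2 or more times in 0.225%. With this spacing the letters are not in the OAS1 window, and other spacings between GAAA and GAAA were not searched. The core of the gamma-activated site, TTCNNNGAA, matched the OAS1 window at -168 to -160, as in 6.57% of promoters. A match is a description of the letters and not a measured binding site.

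Pairwise correlations of gene-level values were 0.9836 to 0.9895 within siNELF-E, siNELF-C, siNELF-A and control, and 0.9172 to 0.9729 within siNELF-B. The mean r of siNELF-B replicate 2 was 0.945 with the other siNELF-B arrays and 0.9845 with control. SiNELF-B replicate 3 had an interquartile range of 3.12 against 3.57 to 4.12 on the other 14 arrays. Of the targets, NELFCD averaged 5.83 ± 0.20 in siNELF-C and 9.25 ± 0.07 in control, and NELFE averaged 4.65 ± 0.05 in siNELF-E and 7.26 ± 0.04 in control (log2, SD, n = 3 each). NELFA averaged 5.63 ± 0.27 in siNELF-A and 6.24 ± 0.10 in control, and NELFB was not analysed here, which leaves siNELF-B without a target value. In control cells the 8 luminal markers lay between the 86th and 99.9th percentiles of all clusters, the 4 leukocyte markers between the 3.68th and 46.1st, the 3 mesenchymal ones between the 22.4th and 62.8th and the 2 endothelial ones between the 14.2nd and 26.7th. The 1 basal marker measured, KRT14, lay at the 55.5th percentile, and the part of other cell types in the results was not tested.

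OAS1, the shortest of the enzymes, was lower on every knockdown array than on every control array, and by nearly the same amount in all 4 knockdowns. The siNELF-E arrays read 4.68, 4.69 and 4.61 (log2), the siNELF-C arrays 4.70, 4.45 and 4.84, the siNELF-B arrays 4.39, 4.86 and 4.44 and the siNELF-A arrays 4.73, 4.62 and 4.53. The control arrays read 7.46, 7.105 and 7.37. The 4 knockdown groups overlapped one another, and their means (4.56 to 4.66) lay within 0.10 of each other. The mean of the 4 knockdowns was 6.42-fold below control, a log2 difference of -2.68 (SE 0.122, n = 12 and 3 arrays). In RNA from whole cultures, fewer cells with the transcript and less of it in each cell cannot be told apart. For all 4 OAS genes the 12 knockdown arrays lay below the 3 control arrays, as for 4.86% of all clusters.

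OAS3, the longest of the enzymes, read 5.06, 5.27 and 5.28 on the siNELF-E arrays, 5.43, 5.33 and 5.46 on the siNELF-C arrays, 5.71, 6.09 and 5.26 on the siNELF-B arrays and 5.33, 5.30 and 5.13 on the siNELF-A arrays. The control arrays read 8.165, 7.98 and 8.06. The groups did not overlap with control, and siNELF-B replicate 2 was the highest knockdown array. The mean log2 difference was -2.68 (SE 0.137, 6.41-fold lower). By knockdown it was -2.87 for siNELF-E, -2.66 for siNELF-C, -2.38 for siNELF-B and -2.82 for siNELF-A.

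OAS2 had the lowest values of the family relative to control and the widest range of knockdown means. The siNELF-E arrays read 3.89, 4.50 and 4.095, the siNELF-C arrays 3.55, 3.44 and 3.47, the siNELF-B arrays 3.88, 4.09 and 3.13 and the siNELF-A arrays 3.225, 3.10 and 3.23. Control values were 7.20, 6.98 and 7.11. All knockdown arrays lay below control, the siNELF-A and siNELF-C arrays did not overlap each other or siNELF-E, and the siNELF-B arrays spanned both. The mean log2 difference was -3.46 (SE 0.171, 11-fold lower), with -2.93 for siNELF-E, -3.61 for siNELF-C, -3.39 for siNELF-B and -3.91 for siNELF-A. Background signal was not measured here, and the siNELF-A, siNELF-B and siNELF-C means lay below 3.901, the 40th percentile of cluster means, so these folds rest on a dim knockdown level.

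OASL, the family member without synthetase activity, had the smallest difference from control. The siNELF-E arrays read 4.06, 4.18 and 3.75, the siNELF-C arrays 4.01, 4.21 and 4.02, the siNELF-B arrays 3.13, 3.89 and 4.16 and the siNELF-A arrays 4.43, 4.33 and 4.19, against 5.61, 5.08 and 5.28 on the control arrays. The knockdown arrays were again all below the control arrays, with siNELF-B replicate 1 the lowest. The mean log2 difference was -1.29 (SE 0.183, 2.45-fold lower), and by knockdown -1.33 for siNELF-E, -1.24 for siNELF-C, -1.60 for siNELF-B and -1.01 for siNELF-A.

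**Figure D1:**
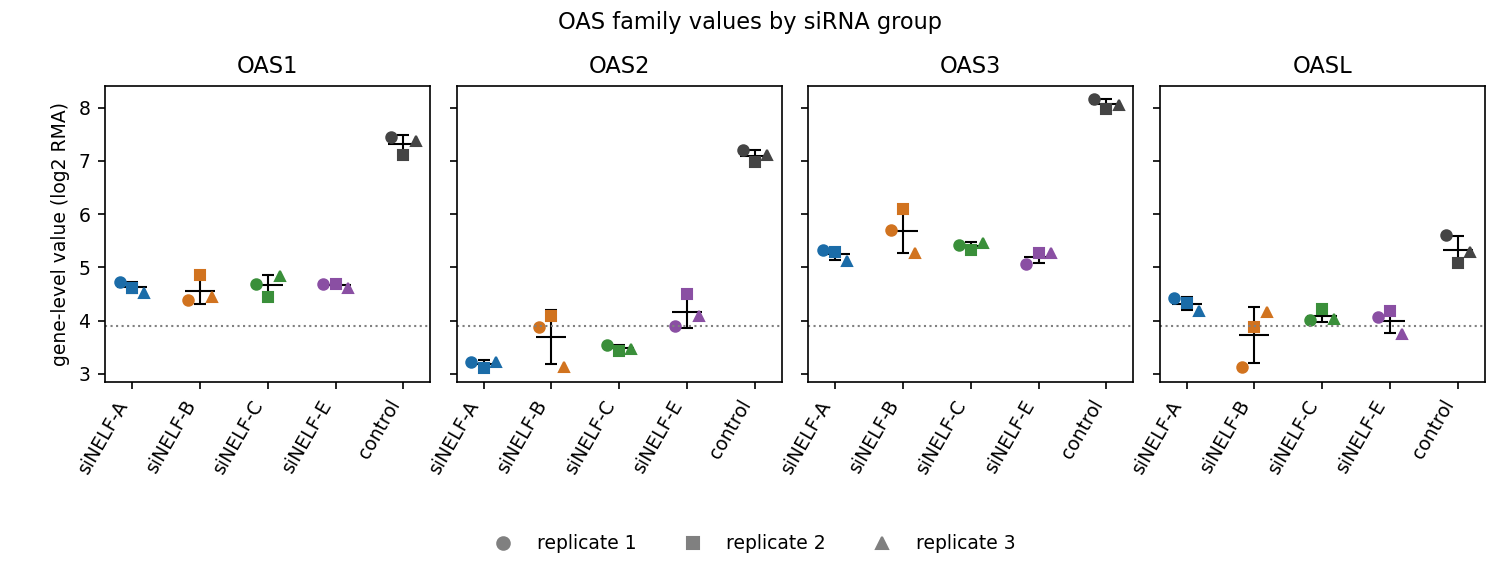
Gene-level log2 RMA values (vertical axis) of OAS1, OAS2, OAS3 and OASL on each array (point shapes mark replicates 1 to 3), by siRNA group on the horizontal axis, with the group mean and SD as bars; the dotted line is 3.901, the 40th percentile of cluster means. Every knockdown point lies below every control point, and OAS2 has the widest spread among knockdown groups, from 3.18 ± 0.07 in siNELF-A to 4.16 ± 0.31 in siNELF-E.

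Set against all clusters, whose median difference was -0.08, OAS2 ranked 3, OAS1 8 and OAS3 9 from the most negative of 22011 for the mean of the 4 knockdowns, while OASL ranked 269. Calls required a limma p below 0.05 after Benjamini-Hochberg adjustment across every feature, and at least 1.5-fold. As a description of the contrast they were chosen on, and not as a test, all 4 genes passed that rule as lower in every knockdown, where the share of clusters called lower was 4.04% for siNELF-E, 5.3% for siNELF-C, 4.19% for siNELF-B and 2.83% for siNELF-A, and 0.477% for all 4 together. Nothing is read from the count, which the choice of the genes fixed. Even so, OASL did not pass for siNELF-A in 11 of the 23 alternative settings, namely all 3 scalings, the replicate block and the omission of any siNELF-A array, any control array or siNELF-C replicate 3. It did not pass for siNELF-B and siNELF-C with arrays centred on their 75th percentiles. Of the clusters called for the mean of the 4 knockdowns 7.27% were higher, and 24.3%, 19% and 37.5% after quantile normalization, median centring and 75th percentile centring, which shifted the median of all clusters to 0.05, 0.07 and 0.21. Adding each array's interquartile range to the model as a covariate gave 34.9%.

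The knockdown arrays differed widely in how many clusters were low. On siNELF-B replicate 2, 1.05% of clusters lay at least 2-fold below the control mean, compared with 28.2% on siNELF-B replicate 3 and 3.7% to 9.07% on the other 10 knockdown arrays. OAS1, OAS2, OAS3 and OASL stood at -2.45, -3.0, -1.98 and -1.44 on siNELF-B replicate 2, ranking 10, 5, 26 and 86 from the lowest of all clusters there. On siNELF-B replicate 3 they stood at -2.88, -3.97, -2.80 and -1.16, with ranks 248, 47, 277 and 5229. Without both arrays the mean differences were -2.73, -3.42, -2.68 and -1.44.

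**Figure D2:**
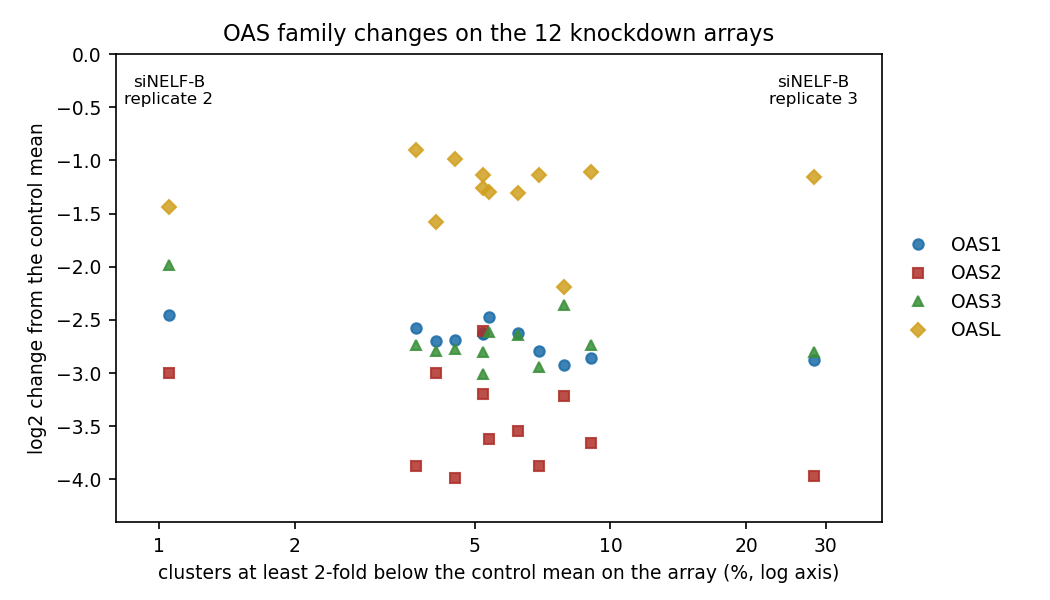
Log2 difference of each OAS gene from the control mean (vertical axis) on each of the 12 knockdown arrays, against the percentage of clusters at least 2-fold below the control mean on that array (horizontal log axis). OAS1 stays between -2.92 and -2.45 while the percentage runs from 1.05 on siNELF-B replicate 2 to 28.2 on siNELF-B replicate 3.

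At exon level the lower signal covered most probe sets of OAS1, OAS2 and OAS3, and fewer of OASL. Of the 86 probe sets, 80 lay at or above 4.195 in control, the 40th percentile of probe set means. On all 12 knockdown arrays 72 of the 86 were below all 3 control arrays (13 of 15 for OAS1, 24 of 26 for OAS2, 30 of 34 for OAS3 and 5 of 11 for OASL), a pattern seen in 3.11% of all probe sets. The opposite pattern, all 12 above, was seen in 0.441% of all probe sets and in 0 of the 86. The mean of the 4 knockdowns was at least 2-fold lower for 76 of 86, compared with 6.97% of all probe sets. Median log2 differences over all probe sets of a gene were -2.30 for OAS1, -3.37 for OAS2, -2.58 for OAS3 and -0.64 for OASL.

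OAS1 probe set 3432452, its brightest in control, read 5.15, 5.86 and 5.22 on the siNELF-E arrays, 7.599, 6.63 and 6.96 in the siNELF-C group, 7.08, 6.885 and 5.33 on the siNELF-B arrays and 6.11, 7.15 and 6.34 on the siNELF-A arrays, against 9.64, 9.55 and 9.41 on the control arrays. No knockdown array reached the control range. Its mean log2 difference was -3.17. The OAS1 range ran from -4.15 (3432451, 17.8-fold) to -1.29 (3432457) among probe sets above the 40th percentile. Of its remaining probe sets 3432456, dim in control and outside the naming rule, measured 0.06.

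OAS2 probe set 3432539, its brightest, read 6.46, 6.97 and 6.53 on the siNELF-E arrays, 5.62, 6.53 and 6.39 on the siNELF-C arrays, 6.56, 6.32 and 6.375 on the siNELF-B arrays and 6.25, 5.44 and 6.38 on the siNELF-A arrays, against 9.295, 8.998 and 9.07 on the control arrays, a mean log2 difference of -2.804 with no overlap. The OAS2 probe set furthest below control was 3432537 at -4.60. Its knockdown mean of 3.44 lay below 4.195, the 40th percentile of probe set means, so no fold is given. Probe set 3432516, second by identifier, differed least at -0.54, with knockdown values of 6.52 to 7.599 and control values of 7.69 to 7.775 that did not overlap. It stood apart from the probe sets on either side of it in identifier order, which measured -2.29 and -3.81.

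OAS3 had its 2 exceptions side by side at the start of the identifier order. Probe set 3432469 read 7.21, 6.07 and 6.397 on the siNELF-E arrays, 6.645, 7.001 and 6.75 on the siNELF-C arrays, 6.135, 6.34 and 7.89 on the siNELF-B arrays and 7.39, 7.08 and 6.798 on the siNELF-A arrays, against 6.31, 6.515 and 6.07 on the control arrays. Its mean log2 difference was 0.51, with groups that overlapped. Its neighbour 3432468, named after its values were seen, measured 0.21, the next (3432470) -1.14, and the other 31 between -4.03 (3432492) and -1.11. The brightest OAS3 probe set in control, 3432488, had a mean difference of -3.27.

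OASL was the most mixed of the 4 genes. Probe set 3474842, its brightest, read 5.45, 6.03 and 4.51 on the siNELF-E arrays, 6.025, 5.73 and 5.24 on the siNELF-C arrays, 4.24, 5.31 and 5.73 on the siNELF-B arrays and 6.265, 5.12 and 5.66 on the siNELF-A arrays, against 7.595, 7.49 and 7.785 on the control arrays, a mean log2 difference of -2.18 with no overlap. Probe set 3474841 was furthest below control at -3.67, with a knockdown mean of 3.23 that lay below 4.195, so no fold is given. Probe set 3474843 measured 0.29, with 8.17 on siNELF-B replicate 3 and 4.70 to 7.01 on the other 11 knockdown arrays. Only 7 of the 11 OASL probe sets reached the 40th percentile in control, and the gene-level difference of -1.29 was larger in size than the probe set median of -0.64. Across probe sets of a gene, the control level and the mean difference correlated at r = -0.65 (OAS1, n = 15), -0.21 (OAS2, n = 26), -0.56 (OAS3, n = 34) and -0.64 (OASL, n = 11). These are descriptions over probe sets that share the same arrays. The control level enters both values, which by itself pulls r below 0.

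**Figure D3:**
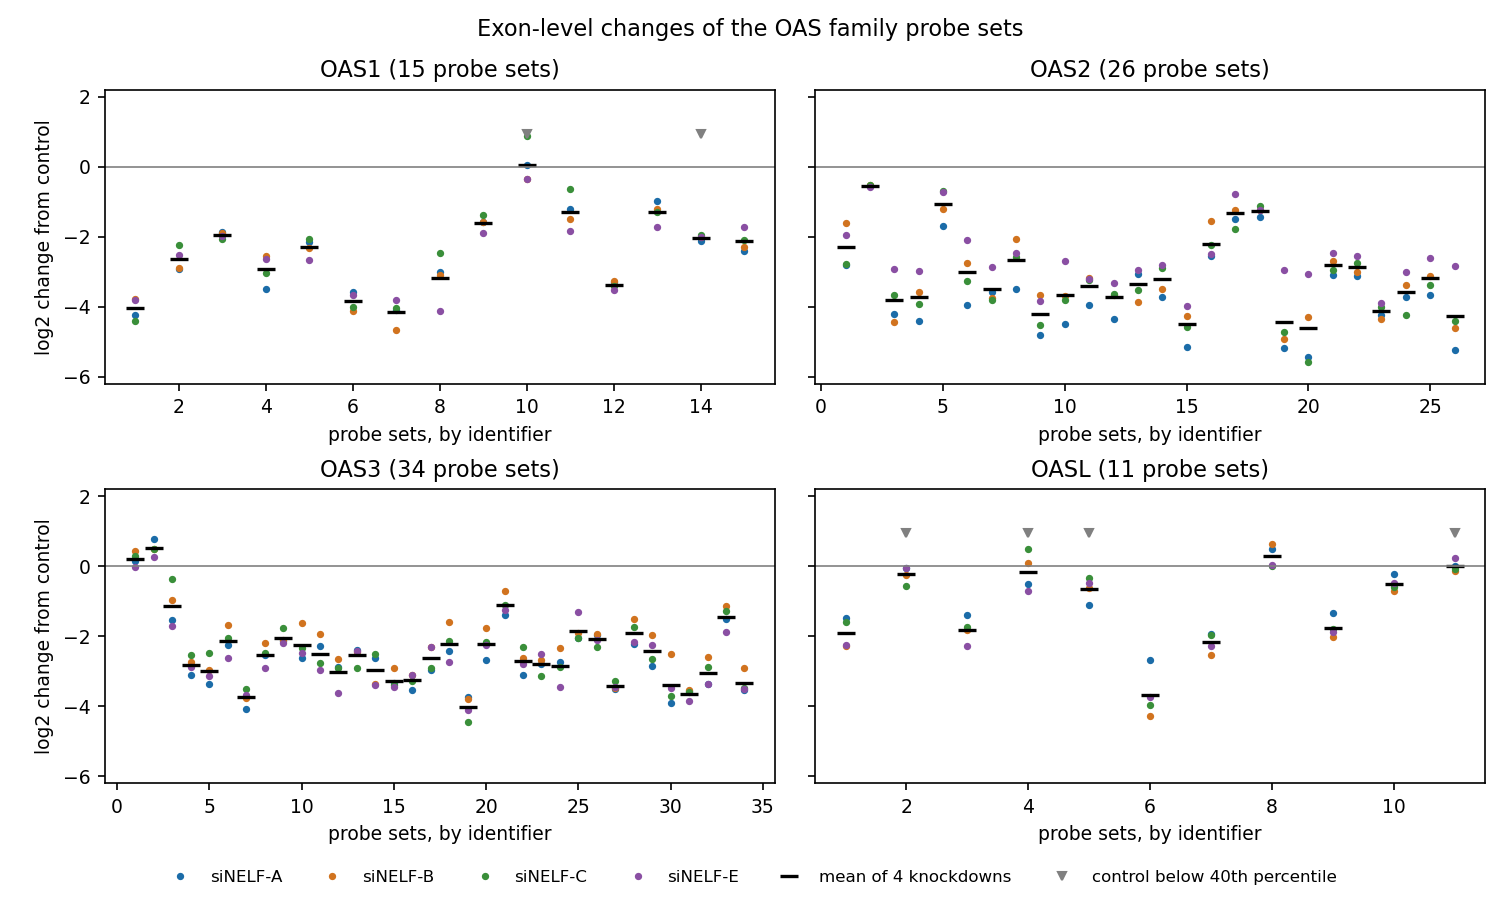
Log2 difference from control (vertical axis) of every OAS1, OAS2, OAS3 and OASL probe set in order of identifier (horizontal axis), with a coloured point for each knockdown and a black bar for their mean; grey triangles mark probe sets below the 40th percentile in control. The means run from -4.60 to -0.54 for OAS2, and the first 2 OAS3 probe sets stand at 0.21 and 0.51.

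Differences between knockdowns did not enter the choice of the genes and were tested; pairs that include the same knockdown share its arrays. The 4 genes in the 6 pairs of knockdowns gave 24 comparisons, adjusted over all 22011 clusters in each pair, of which 1 was called and 6 had an unadjusted p below 0.05. Of all clusters 4.05%, 2.87% and 4.28% were called in siNELF-E, siNELF-C and siNELF-B minus siNELF-A, 6.9% and 2.14% in siNELF-E and siNELF-C minus siNELF-B, and 5.18% in siNELF-E minus siNELF-C. OAS2 was higher in all 3 siNELF-E arrays than in all 3 siNELF-A arrays. The log2 difference was 0.98 (SE 0.217, 95% interval 0.51 to 1.45), or 1.97-fold, with a limma adjusted p of 0.0214. This call was lost without any 1 of siNELF-A replicates 1, 2 and 3 or siNELF-E replicates 2 and 3, with adjusted p of 0.0626 to 0.104 and differences of 0.81 to 1.01, and was kept in 19 of 24 settings in all.

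OAS2 in siNELF-E minus siNELF-C measured 0.68 (SE 0.217, 95% interval 0.21 to 1.15) and was not called (limma adjusted p = 0.097), although the arrays did not overlap. It passed in 6 of 24 settings, among them the omission of siNELF-B replicate 2 (adjusted p = 0.0357) or replicate 3 (0.00778). The order of OAS2 means was siNELF-E 4.16, siNELF-B 3.70, siNELF-C 3.48 and siNELF-A 3.18. No neighbours in that order passed the test, although siNELF-E minus siNELF-B was called without siNELF-B replicate 2 (0.66, adjusted p = 0.0325). OAS2 in siNELF-B minus siNELF-A (0.52) was called in 6 of 24 settings (0.61 to 0.80), among them the omission of siNELF-B replicate 3.

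OAS1 showed no call in 6 pairs in limma, with 0 of 6 at an unadjusted p below 0.05 and differences of -0.06 to 0.10. The 95% intervals reached from -0.40 to 0.43, so differences of up to that size between knockdowns are not shown to be absent. OAS1 was called in no pair in any of the 24 settings, where its differences ran from -0.25 to 0.31, under 1.5-fold. For the pairs that include siNELF-B the adjusted p alone fell below 0.05 in some settings. OAS3 also had no call (2 of 6 at an unadjusted p below 0.05), with its largest difference in siNELF-E minus siNELF-B, -0.49 (SE 0.173, 95% interval -0.86 to -0.11, adjusted p = 0.103). That OAS3 difference passed after quantile normalization (-0.71), median centring (-0.60) and 75th percentile centring (-0.82), with the interquartile range covariate (-0.83) and without siNELF-B replicate 3 (-0.70). OAS3 in siNELF-B minus siNELF-A, 0.44 with all arrays, was called in these settings other than median centring (0.62 to 0.68).

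OASL had no call and 1 of 6 pairs at an unadjusted p below 0.05, siNELF-B minus siNELF-A at -0.59 (SE 0.231, 95% interval -1.09 to -0.09, adjusted p = 0.176). That difference was called without siNELF-B replicate 3 (-0.81), with array weights (-1.20) and with siNELF-B replicates 2 and 3 both left out (-1.18), where the 1 remaining siNELF-B array takes its spread from the other groups. The siNELF-C and siNELF-E differences from siNELF-B were called in the last 2 of these settings. The siNELF-B calls of OASL therefore change with which siNELF-B arrays are kept or how arrays are weighted. Those of OAS3 change with the scaling, the interquartile range covariate and the omission of siNELF-B replicate 3.

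**Figure D4:**
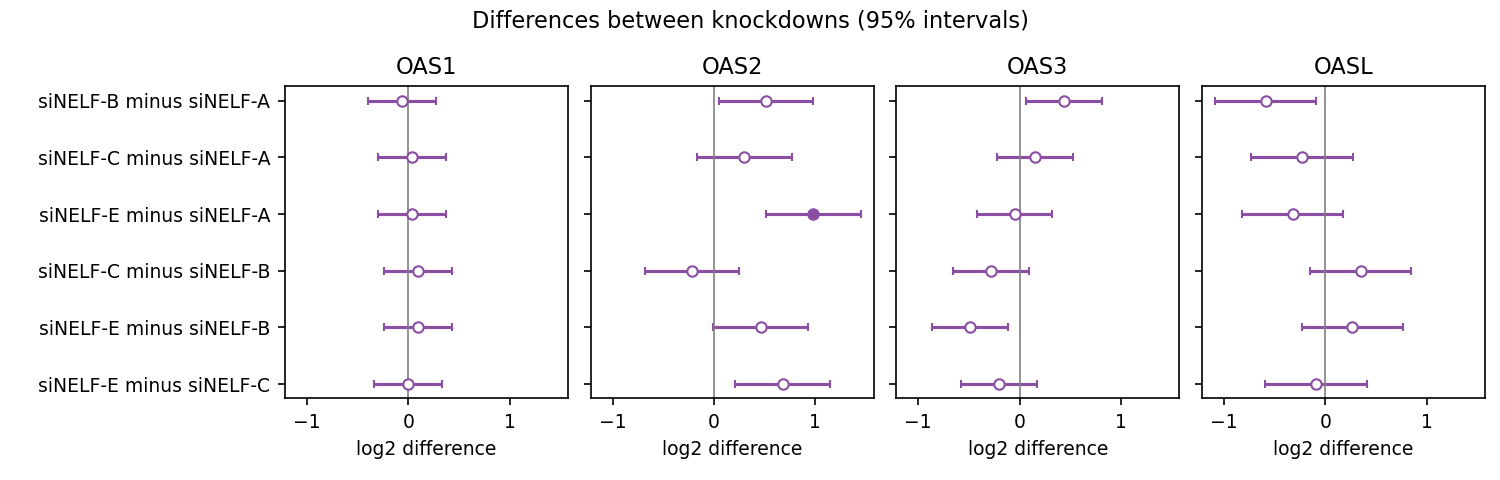
Log2 differences (horizontal axis) of OAS1, OAS2, OAS3 and OASL in the 6 pairs of knockdowns, with 95% intervals; the filled point is the called one. OAS1 intervals lie between -0.40 and 0.43, and OAS2 in siNELF-E minus siNELF-A stands at 0.98.

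The exon-level table showed the OAS2 difference along the gene. In siNELF-E minus siNELF-A 25 of 26 OAS2 probe sets measured above 0, with a median of 0.94, compared with 6 of 15 for OAS1, 16 of 34 for OAS3 and 2 of 11 for OASL. These probe sets share arrays and a transcript and are not replicates. Over the 6 pairs, 2 comparisons of the 86 probe sets were called, both of OAS2 probe set 3432537 in siNELF-E. Of all probe sets 1.06%, 0.483% and 0.295% were called in siNELF-E, siNELF-C and siNELF-B minus siNELF-A, 1% and 0.332% in siNELF-E and siNELF-C minus siNELF-B, and 1.23% in siNELF-E minus siNELF-C.

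Probe set 3432537 read 4.37, 5.28 and 5.29 on the siNELF-E arrays, against 3.001, 1.96 and 2.40 in the siNELF-C group and 3.42, 1.74 and 2.61 in the siNELF-A group. The siNELF-E arrays lay above all arrays of both other groups. It was higher in siNELF-E than in siNELF-A by 2.40 (log2, SE 0.46, limma adjusted p = 0.0224) and than in siNELF-C by 2.53 (adjusted p = 0.0173). The siNELF-A and siNELF-C means, 2.59 and 2.45, lay below the 25th percentile of probe sets (2.929), so no fold is given. The siNELF-A call was lost without siNELF-A replicate 2 or 3, without siNELF-E replicate 2 or 3 and with a replicate block (adjusted p of 0.0529 to 0.111), and the siNELF-C call on omitting replicate 2 or 3 of either group (0.0625 to 0.0941).

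Exon usage sets the difference at 1 probe set against that of the remaining ones in its gene and was tested in limma's diffSplice on 81 of the 86 OAS probe sets among 162947 of 10563 genes. Called were 0 of 81 in each pair of knockdowns. Of all those tested 0.154%, 0.128% and 0.145% were called in siNELF-E, siNELF-C and siNELF-B minus siNELF-A, 0.733% and 0.127% in siNELF-E and siNELF-C minus siNELF-B, and 0.393% in siNELF-E minus siNELF-C. In the same order of pairs, 7, 3, 5, 7, 3 and 6 of the 81 had an unadjusted p below 0.05. OAS2 probe set 3432537 came closest, with a usage difference of 1.91 in siNELF-E minus siNELF-C (adjusted p = 0.0587). Between 1 and 8 calls appeared in some alternative settings, the most without siNELF-B replicate 2. The share of all tested probe sets called was not counted under those settings.

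The surrounding pathway was read in the mean of the 4 knockdowns against control, from a list drawn up with earlier results of these data known. Its counts and p-values are therefore no independent support. The list held 36 genes by role, 30 of them with a gene-level cluster. Of these 9 fell and 0 rose, where 4.46% of all clusters were called lower and 0.35% higher, and 16 of 30 had an unadjusted p below 0.05, as did 5203 of 22011 clusters. The median log2 difference of the 30 was -0.41, against -0.08 over all clusters. Centring arrays on their 75th percentiles left 5 genes lower (EIF2AK2, IFIH1, RIGI, TLR3 and IRF9), and under that setting and the interquartile range covariate IFNGR1 was higher (0.72 and 0.76).

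Other double-stranded RNA proteins fell in 6 of 12 cases. EIF2AK2, the kinase PKR that halts translation on binding double-stranded RNA, fell 4.58-fold (log2 difference -2.20, SE 0.377, limma adjusted p = 0.00519), with -1.81 for siNELF-E, -2.30 for siNELF-C, -2.46 for siNELF-B and -2.21 for siNELF-A, and was not called once control replicate 3 was left out (adjusted p = 0.0521). RIGI, which encodes the sensor RIG-I, fell 2.64-fold (-1.40, SE 0.199, adjusted p = 0.00179), and its regulator DHX58 (LGP2) fell 1.84-fold (-0.88, SE 0.134, adjusted p = 0.00285). ADAR, which edits adenosines in double-stranded RNA, fell 1.76-fold (-0.82, SE 0.181, adjusted p = 0.0202), a call lost without control replicate 1, 2 or 3 (0.0759, 0.0822 and 0.145) and under 1.5-fold with the interquartile range covariate (-0.46). In the single knockdowns ADAR passed the rule in 1 of 4. The RNA sensors IFIH1 (MDA5) and TLR3 fell by 1.07 and 0.96 on the log2 scale (adjusted p = 5e-04 and 0.000279), at levels too low on both sides for a fold. STAU1 and DICER1, the brightest of the 6 not called, measured -0.37 and -0.21. MAVS, named after its values were seen, measured -0.46 (limma adjusted p = 0.0452) and missed the call by its size, but passed the rule in 1 of the 4 single knockdowns. PNPT1, also named after its values were seen, measured -1.02 (SE 0.419, limma adjusted p = 0.166). It was called with array weights (-0.91) and without siNELF-B replicate 2 (-1.19) or replicate 3 (-0.82). With both left out PNPT1 measured -0.95.

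Among the inducing signal and factors 3 of 7 fell. IRF9, the DNA-binding part of ISGF3, averaged 5.07 ± 0.30 in siNELF-E and 5.19 ± 0.07 in siNELF-C, against 7.28 ± 0.20 in control (SD, n = 3 each), and fell by 2.08 to 2.21 on the log2 scale in the 4 knockdowns. The kinase JAK1 fell 1.81-fold (-0.86, SE 0.117, adjusted p = 0.00144), and IRF2, a repressor of interferon-induced genes, fell 1.56-fold (-0.64, SE 0.155, adjusted p = 0.0303). The IRF2 call was lost without any 1 control array, siNELF-A replicate 3 or siNELF-E replicate 1 or 3 (adjusted p of 0.0502 to 0.18), and under all 3 scalings and the interquartile range covariate (-0.49 to -0.34). In the single knockdowns IRF2 passed the rule in 2 of 4. TYK2 and IRF3 measured -0.07 and -0.36 and were not called. STAT2, measured without a test as the median of 26 probe sets, averaged 6.18 ± 0.17 in siNELF-E, 5.85 ± 0.25 in siNELF-C, 5.79 ± 0.86 in siNELF-B, 6.28 ± 0.36 in siNELF-A and 7.12 ± 0.19 in control (SD, n = 3 each).

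Genes of the ligands and receptors, of the OAS products and of the OAS fold gave no calls in limma for the mean of the 4 knockdowns. Of 5 interferon ligand and receptor genes 0 were called and 2 had an unadjusted p below 0.05, with IFNGR2 at -0.05 and IFNAR1 at -0.45. IFNAR2, named after its values were seen, measured -0.55 (SE 0.114, limma adjusted p = 0.0141) at dim levels of 2.38 to 2.72 in the knockdowns and 3.09 in control. It missed the call for the mean of the 4 knockdowns only by its size, and passed the rule in 2 of the 4 single knockdowns. IFNAR1 differed between knockdowns in measured value, at 0.00 and 0.12 in siNELF-A and siNELF-E and -0.95 in both siNELF-B and siNELF-C, a difference not tested. Interferon beta (IFNB1, outside the naming rule) averaged 1.66 or less in every group, against 1.36 in control. Of the 2 genes tied to 2′-5′-oligoadenylates, ABCE1, a ribosome recycling factor, measured -0.61 (SE 0.349, limma adjusted p = 0.304) and AKAP7 -0.18, with 0 of 2 at an unadjusted p below 0.05. ABCE1 was called without siNELF-B replicate 2 (-0.76, limma adjusted p = 0.0406). With siNELF-B replicates 2 and 3 both left out ABCE1 measured -0.59. Among 4 genes with an OAS-like nucleotidyltransferase fold ILF2 measured -0.28 and ZFR -0.36, with 0 called and 1 at an unadjusted p below 0.05.

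**Figure D5:**
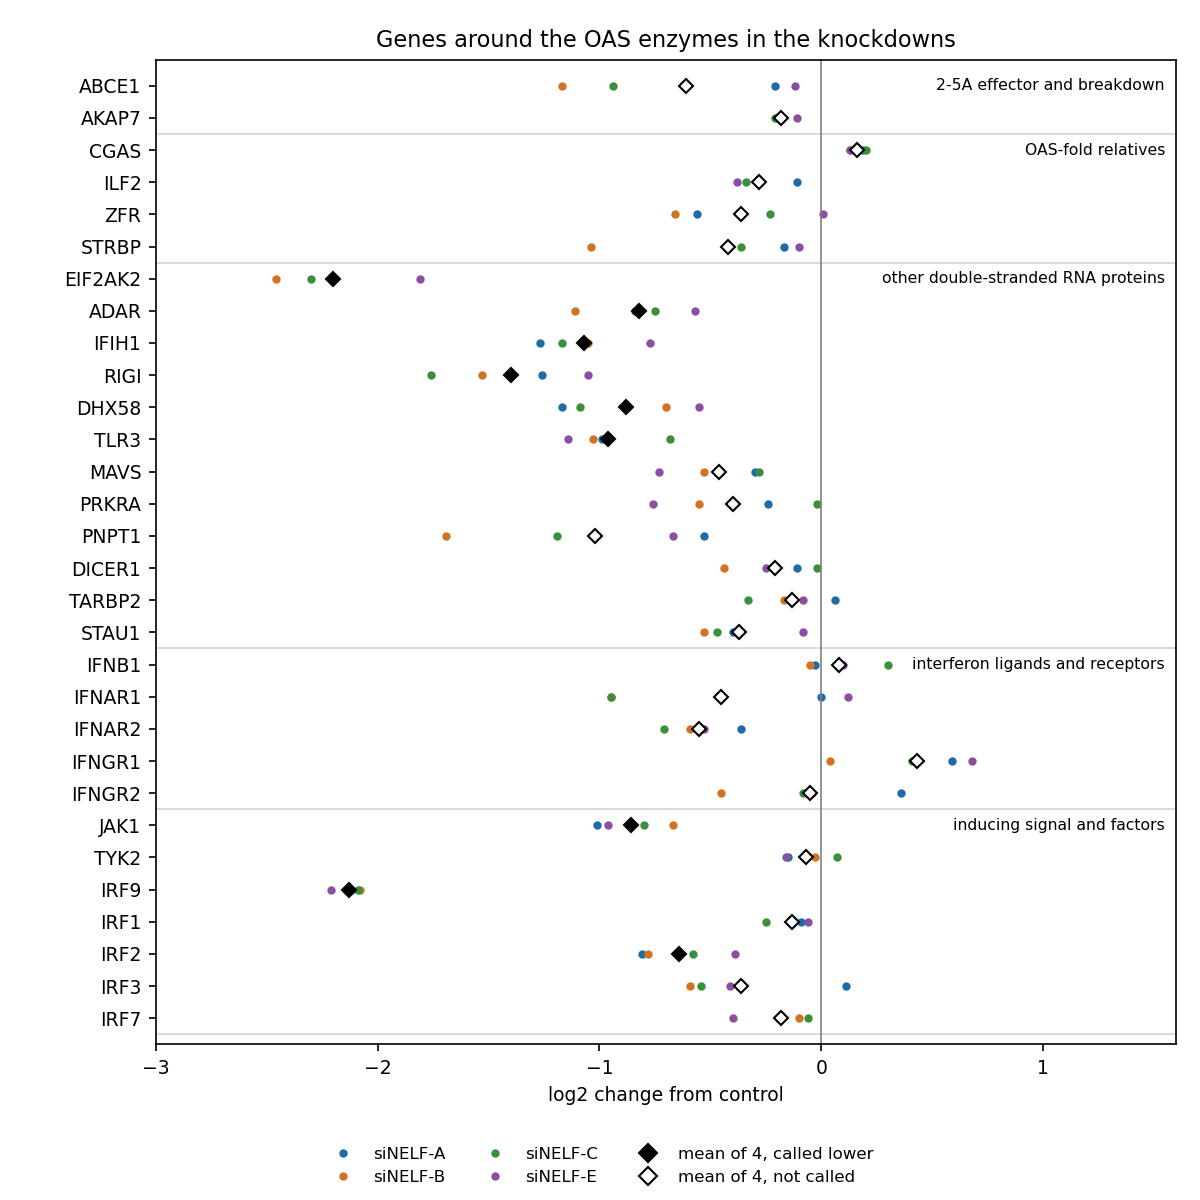
Log2 difference from control (horizontal axis) of the 30 measured pathway genes grouped by role, with a coloured point for each knockdown and a diamond for their mean, filled where called lower. EIF2AK2 and IRF9 lie furthest left at -2.20 and -2.13.

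Neighbouring genes on chromosome 12 were read by their order in the RefSeq table. Of the 10 nearest measured genes around OAS1, OAS3 and OAS2, 1 fell, PTPN11, a tyrosine phosphatase of growth factor signalling (-0.88, SE 0.174, 1.84-fold, limma adjusted p = 0.0111), and 5 had an unadjusted p below 0.05. Over all clusters 4.46% were called lower, and 5203 of 22011 had an unadjusted p below 0.05. PTPN11 measured -1.68 in siNELF-E and -1.27 in siNELF-B, but -0.35 in siNELF-C and -0.22 in siNELF-A, and was called in the first 2 of these alone. It was not called on average without control replicate 1 (0.0567) or 3 (0.094). The genes next to the group, RPH3A and DTX1, both measured 0.08. Of the 10 around OASL, 0 were called and 2 had an unadjusted p below 0.05, with SPPL3 and P2RX7 next to it at -0.22 and -0.18. Without siNELF-B replicate 2 the calls among the 20 neighbours were 5, while over all clusters 2697 were called lower and 176 higher, against 982 and 77 with all arrays. Without siNELF-B replicates 2 and 3 they were 4, with 2133 lower and 164 higher over all clusters.

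The genes most like each OAS gene were ranked by Pearson correlation of log2 values over the 15 arrays, among clusters with 1 symbol and a mean at or above the 40th percentile, leaving out the OAS genes themselves. For OAS1 they were MX1 (r = 0.987), IRF9 (0.986), IFI6 (0.982), IFIT5 (0.981) and LAMP3 (0.978), for OAS2 IFI6 (0.971), IFIT5 (0.962), MX1 (0.961), HERC6 (0.96) and IRF9 (0.957), and for OAS3 IRF9 (0.98), MX1 (0.975), IFITM1 (0.969), IFI6 (0.962) and ATP10A (0.955). OASL was most like LY6E (0.917), IFIT5 (0.893), PC (0.885), IFITM1 (0.875) and ACOT7 (0.873). These correlations span the gap between 3 control and 12 knockdown arrays and describe 2 separate clusters, and the arrays are technical repeats.

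Over the 12 knockdown arrays alone the highest were LEO1 for OAS1 (r = 0.866), MARCKS for OAS2 (0.941), VANGL1 for OAS3 (0.96) and ACD for OASL (0.907), where LEO1 is a subunit of the elongation factor PAF1 complex and ACD a telomere protein. The others were SLC4A11, CCDC142, BLOC1S1 and CLPB for OAS1, BLOC1S6, PRDM15, ATF7 and SNAP23 for OAS2, ITPR3, KCNQ5, XXYLT1 and CDK19 for OAS3, and TRUB1, DAD1, DEF8 and RPL8 for OASL, at r of 0.847 to 0.956. The OAS genes themselves correlated at r = 0.774 to 0.977 over the 15 arrays and at 0.267 to 0.295 among OAS1, OAS2 and OAS3 over the 12. On those 12 arrays OASL correlated at 0.276 with OAS1, -0.457 with OAS2 and -0.495 with OAS3.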

How the data were processed

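The log2 values were deposited by the authors as robust multi-array average (RMA) values of core exons from the ArrayAssist software on genome build hg18, per the labels; RNA was depleted of ribosomal RNA before labelling of 1 ug per sample. They were used as they stand. Group and replicate number were read from the labels, and with 3 arrays per group precision is limited. Symbols came from the platform annotation, updated through RefSeq for names; no OAS symbol changed. One limma 3.58.1 model (lmFit, eBayes, in R 4.3.3) held 5 group means over 15 arrays, for clusters and likewise for probe sets; diffSplice covered probe sets above the 25th percentile of genes above the 40th percentile with at least 3 probe sets. P-values were adjusted over all features tested. Some genes of the pathway are not reported here. The scripts were checked on simulated data with known changes.

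The OAS genes, the pathway list and the alternatives were chosen with earlier results of these data known. Named were the called pathway genes and neighbours, the 2 brightest uncalled pathway genes of each role, the nearest neighbours, the 5 most correlated genes, and, for each OAS gene, its brightest probe set and those furthest from and nearest to control or above it among probe sets over the 40th percentile in control. Alternatives were quantile normalization, median and 75th percentile centring, leaving out dim features, a replicate block, array weights, the interquartile range as a covariate, other thresholds and omission of arrays.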

Additional observations from a re-analysis of the deposited data

Results flagged for a closer look

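OAS2 stood out because its difference from control was not equal in 2 knockdowns. It was higher in siNELF-E than in siNELF-A by 0.98 on the log2 scale (limma adjusted p = 0.0214 over all clusters, all 3 siNELF-E arrays above all 3 siNELF-A arrays), and the adjusted p ranged from 0.000301 to 0.104 over the 24 settings. The siNELF-A arrays lay below the 40th percentile of clusters, and the part of background signal in the difference was not tested.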

How the results depend on the processing

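No difference called in the model of 5 group means over 15 arrays changed direction in the alternative settings. OASL in siNELF-E minus siNELF-B, called only in alternatives, ranged from -0.07 to 0.87. The mean difference from control of OAS1 was -2.42 after quantile normalization and -2.39 with 75th percentile centring, and of OAS2 -3.17 with the latter. For OAS3 it was -2.39 under both and -2.43 with the interquartile range covariate. The median of all clusters moved as well, from -0.08 to 0.05 after quantile normalization, 0.21 with 75th percentile centring and 0.01 with the covariate. Leaving out single arrays gave -2.79 to -2.61 for OAS1, -3.52 to -3.39 for OAS2, -2.73 to -2.63 for OAS3 and -1.42 to -1.15 for OASL. Gene-level calls between knockdowns numbered 4 after quantile normalization, median centring, 75th percentile centring and with the interquartile range covariate, 6 with array weights and without siNELF-B replicates 2 and 3, and 0 to 6 when single arrays were left out. Probe set calls in the same order were 4, 4, 5 and 7, then 11 with array weights, 12 without siNELF-B replicates 2 and 3 and 0 to 13 without single arrays. Exon usage calls were 1 under the same 4 settings, 5 with array weights, 3 without siNELF-B replicates 2 and 3 and 0 to 8 without single arrays. Neighbour calls were 3 with array weights, 4 without siNELF-B replicates 2 and 3 and 0 to 5 without single arrays. Pathway genes lower numbered 5 with 75th percentile centring. Calls against control over all clusters also varied, at 982 lower and 77 higher with all arrays, 2132 and 201 with array weights and 593 and 356 with 75th percentile centring. The share of all features called between knockdowns was not counted under these settings. No rise in a count is read as a result about the OAS genes. The replicate block left 1 probe set call of 2, kept OAS2 in siNELF-E minus siNELF-A (adjusted p = 0.0365) and changed no other call of a pair of knockdowns, pathway gene or neighbour; OASL in siNELF-A against control no longer passed under it. Replicate numbers did not pair the arrays: deviations of same-numbered arrays correlated at -0.30 to 0.20, and 2 of 15 arrays correlated best with their own number. Where a setting leaves 1 array in a group, that array is assumed to vary like the others. The causes were not tested. Signal over background was not measured, which limits folds of dim features.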
